A study of Homo sapiens with 12 samples.

Results

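The death receptor pathway genes described here are 10 genes of the extrinsic apoptosis pathway, taken by their GENCODE symbols from the 60675 gene identifiers counted in every library. They are the receptors FAS, TNFRSF10A, TNFRSF10B and TNFRSF1A, the adaptors FADD and TRADD, the kinase RIPK1, the initiator caspases CASP8 and CASP10, and their inhibitor CFLAR. Each identifier was found once, so all 10 were measured.

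RNA was sequenced from SUDHL6 and SUDHL16, established cell lines of diffuse large B-cell lymphoma (DLBCL), with 3 libraries in each of 4 groups. Each line was studied as its parental form and as a venetoclax-resistant form, derived by long culture in rising amounts of venetoclax (ABT-199), an inhibitor of the anti-apoptotic protein BCL2. The resistant cells grew at 10 times the original IC50 or more and were kept in the drug. For experiments, cells of both forms were put into fresh medium, and whether venetoclax was present when RNA was taken is not stated. Each resistant form is a single derived line, so library-to-library spread does not cover the spread between independently derived lines. Library preparation also followed the line (NEBNext Ultra II for SUDHL6 on a HiSeq 4000, and for SUDHL16 Illumina's Stranded Total RNA Prep, which used RiboZero Plus, on a NovaSeq 6000), so line and library method cannot be told apart. Nothing in the labels says whether the libraries of a group came from separate cultures, and the p-values below then measure only the spread between libraries.

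Death receptors are surface proteins that carry a death domain inside the cell. Binding of FAS ligand to FAS, or of TRAIL to its receptors TNFRSF10A (DR4) and TNFRSF10B (DR5), recruits the adaptor FADD, which brings the pro-forms of CASP8 and CASP10 together so that they become active. The TNF receptor TNFRSF1A instead recruits TRADD and RIPK1, from which either survival signalling through NF-kappaB or a death-inducing complex can form. CFLAR encodes c-FLIP, a relative of CASP8 that enters the same complex and restrains caspase activation. Venetoclax acts on the other, mitochondrial route to apoptosis, and the comparisons below ask how transcripts of the receptor route stood in cells selected for resistance to it.

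Total counts ran from 33992784 to 40885665 per library in SUDHL6 and from 4131927 to 22068221 in SUDHL16. The library labelled CE-26, the second of the SUDHL16 parental libraries, stood apart from all others. It had the lowest total, placed 68.1% of its counts on genes of the GENCODE 44 annotation and 55.4% on protein-coding genes (84.3% to 90.2% in the other 5 SUDHL16 libraries), yet had counts at 34938 genes against 20896 to 24655 in those 5. Values of the 10 members and of the named pathway genes in SUDHL16 are therefore given with and without it. The biological coefficient of variation was 0.0516 in SUDHL6, 0.468 in SUDHL16 and 0.339 in SUDHL16 without CE-26. The 5 B-cell markers MS4A1, CD79A, CD79B, PAX5 and CD22 were present in every library, with a summed level of 1584 to 4027 counts per 1000000 (CPM). The 16 markers of T, myeloid and epithelial cells and fibroblasts summed to at most 2.27 CPM for any of these cell types in SUDHL6. In SUDHL16, CD3E of T cells had 1.26 to 3.15 CPM in parental and 11.6 to 14.1 CPM in resistant libraries while CD3D and CD2 were at 0 in all resistant libraries. DCN of fibroblasts had 17.9 to 21.5 CPM in parental and at most 0.45 CPM in resistant libraries. The other fibroblast markers did not follow it: COL1A1 was at 0 in every parental SUDHL16 library. COL1A2 and COL3A1 had at most 0.36 CPM in the parental libraries CE-25 and CE-27, and 7.02 and 4.60 CPM in CE-26. The part of these in the results below was not tested.

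Promoter sequence is shown for the 4 members around which the results turn, CFLAR, its chromosomal neighbour CASP8, TNFRSF1A and FAS. Of the 10 members, 6 were taken with a RefSeq start (build GRCh38.p14). TNFRSF10A and TNFRSF10B were left out beforehand, whether or not they had such a start. The 250 bases before each start were searched on both strands for 6 motifs: the GC box (GGGCGG), the CCAAT box (CCAAT), the TATA box (TATAAA), a STAT site (TTCNNNGAA) and the consensus sequences of NF-kappaB and of a p53 half-site. Capitals mark motif matches. Stretches that lie in annotated exons of other transcripts were shortened to 30 bases, and the remainder was not printed.
CFLAR (chr2:201118607-201118636, plus strand, 109 to 80 bases before the start): tgcgcgggGGGCGGGGAATTCCgcagacag
CASP8 (chr2:201260286-201260499, plus strand, 250 to 37 bases before the start): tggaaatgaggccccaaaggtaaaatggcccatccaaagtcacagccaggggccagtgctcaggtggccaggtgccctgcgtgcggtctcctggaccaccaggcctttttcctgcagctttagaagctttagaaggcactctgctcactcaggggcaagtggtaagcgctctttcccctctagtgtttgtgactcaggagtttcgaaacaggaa
TNFRSF1A (chr12:6342115-6342326, minus strand, 250 to 39 bases before the start): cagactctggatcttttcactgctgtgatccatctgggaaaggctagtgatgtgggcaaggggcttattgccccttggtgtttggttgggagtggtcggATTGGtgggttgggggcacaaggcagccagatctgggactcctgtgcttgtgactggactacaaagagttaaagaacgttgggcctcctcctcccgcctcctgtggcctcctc
FAS (chr10:88990726-88990755, plus strand, 72 to 43 bases before the start): ctggagcctcagGGGCGGgcactggcacgg

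The CFLAR stretch holds a GC box followed by the NF-kappaB consensus, whose first base lies 97 bases before the start, and the matches share bases. This RefSeq start lies 2552 bases from the start of the Ensembl canonical CFLAR transcript. CASP8 held none of the 6 motifs in its window, which says only that these letters are not there. TNFRSF1A held 1 CCAAT box on the opposite strand (printed as ATTGG), and FAS 1 GC box. FADD and RIPK1 held 2 GC boxes each. Among 35116 RefSeq promoters, 42.6% held a GC box, 32% a CCAAT box, 10.7% a TATA box, 6.57% a STAT site, 9.96% the NF-kappaB consensus and 5.57% the p53 half-site in the same 250 bases. A match is a description of the sequence and not a bound site.

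In each line, resistant and parental libraries were compared with edgeR's quasi-likelihood test, and a gene was called when its p-value, adjusted by the Benjamini-Hochberg method over all genes tested, fell under 0.05 with a change of 1.5-fold or more. In SUDHL6, CFLAR rose 3.98-fold in resistant cells and was the only called member. In bulk RNA, a change in the share of cells that express a gene and a change in RNA per cell cannot be told apart. The other members of SUDHL6 moved by less than 1.5-fold: the receptors FAS, TNFRSF10A and TNFRSF10B were lower and TRADD and RIPK1 higher in resistant cells at an adjusted p under 0.05. TNFRSF1A and CASP10 had too few reads for the test, leaving 8 of 10. The call of 1 of 8 members stands beside 8.96% of all 16662 genes tested (4.31% called higher). An adjusted p under 0.05 alone was reached by 6 of 8 members against 37.3% of genes tested, and the groups did not overlap for 6 of 8 members against 47.9%. In 1 fit of all 12 libraries, which shares 1 estimate of spread between the lines, CFLAR stayed called and the adjusted p of the other 7 members ran from 0.490 to 1. Since the lines were of unlike spread, that fit can overstate the spread of SUDHL6 and understate that of SUDHL16. Calls gained or lost in it below carry this limit. The members' median log2 change was 0.06, beside 0.00 over all genes tested.

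In SUDHL16, with all 6 libraries, 0 of 10 members were called, beside 5.30% of the 15708 genes tested. DESeq2 called 0 as well, and 1 fit of all 12 libraries called FAS. At an unadjusted p under 0.05 there was 1 member, FAS, against 19.1% of genes tested. The groups did not overlap for 2 of 10 members, FAS and TNFRSF10B, against 26.6%. The median log2 change of the members was 0.25, beside -0.02 over all genes tested. Without CE-26, TNFRSF1A and CASP10 were called higher, 2 of 10 beside 10.0% of 16280 genes tested (6.73% called higher), and the groups did not overlap for 7 of 10 members against 42.2%.

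**Figure D1:**
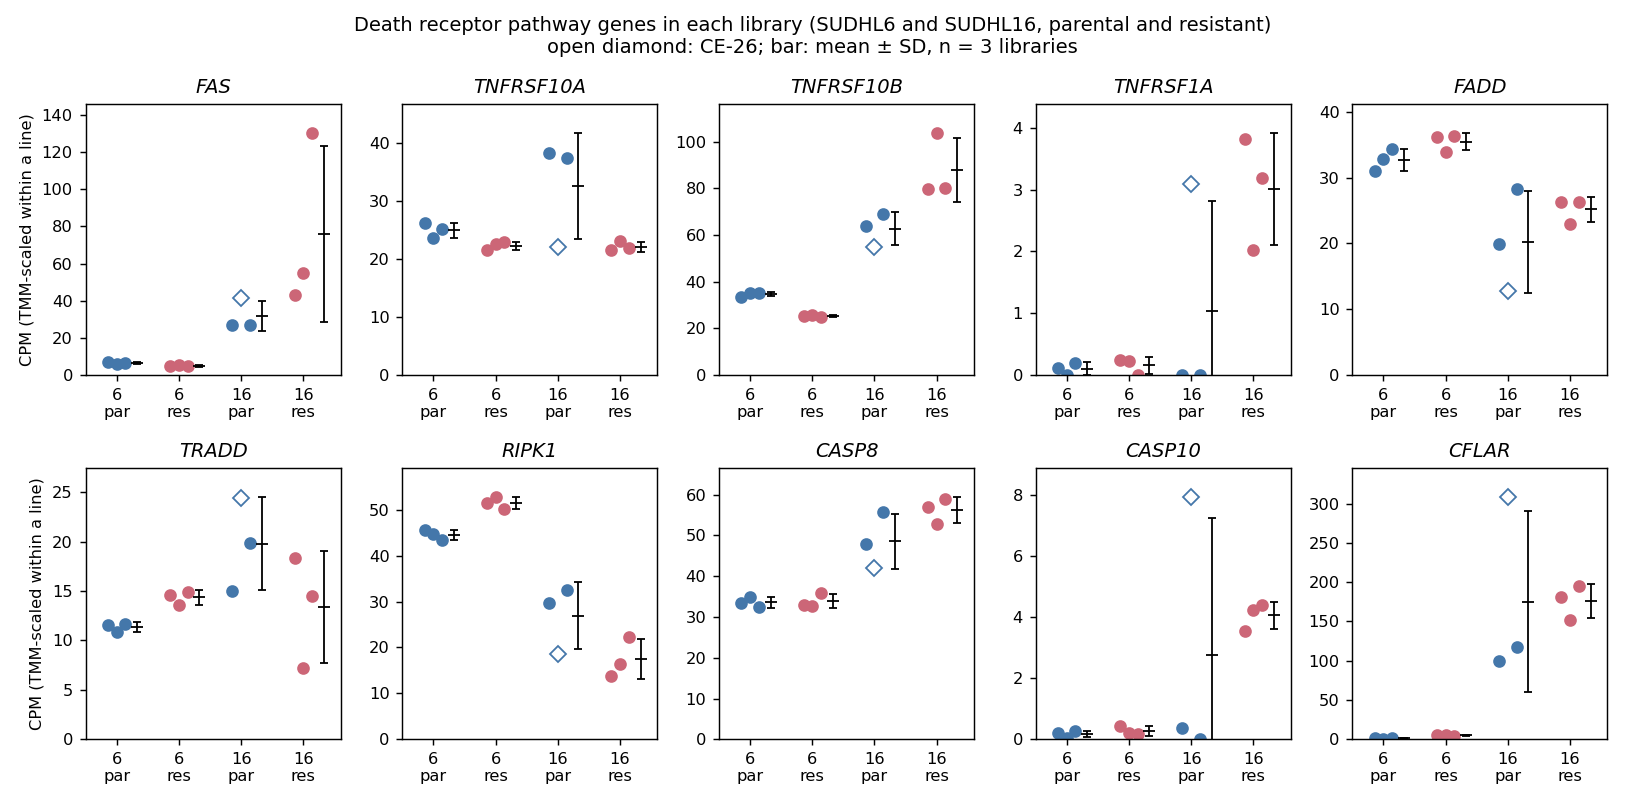
Level of each of the 10 genes in each library, in counts per 1000000 (CPM) scaled within a line (vertical axes start at 0), for parental (par) and resistant (res) SUDHL6 (6) and SUDHL16 (16). Circles are libraries, the open diamond is CE-26, and bars give the mean and SD of 3 libraries. CFLAR lies between 1.0 and 5.89 CPM in SUDHL6 and between 100 and 308 CPM in SUDHL16, and CE-26 lies away from the other 2 parental libraries for CFLAR, CASP10 and TNFRSF1A.

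FAS (ENSG00000026103, chromosome 10, 88953813 to 89029605, plus strand, GRCh38) is the receptor of FAS ligand. In parental SUDHL6 it had 6.93, 6.11 and 6.64 CPM and in resistant SUDHL6 4.70, 5.35 and 4.60 CPM. The groups did not overlap, the resistant libraries being lower by a log2 change of -0.43 ± 0.11 (SE; edgeR, adjusted p = 0.00740). In parental SUDHL16 it had 27.2, 41.3 (CE-26) and 27 CPM and in resistant SUDHL16 42.9, 55.0 and 130.5 CPM. All resistant libraries lay above all parental ones, but the lowest resistant value was close to CE-26 and the highest more than 2 times the next. The log2 change of 1.27 ± 0.43 had an adjusted p of 0.146. It was 1.5 without CE-26 (adjusted p = 0.0774) and 0.65 without CE-30, the library with the highest value (adjusted p = 0.396). In 1 fit of all 12 libraries, which can understate the spread of SUDHL16, it was 1.34 and called (adjusted p = 0.0253). The FAS locus overlaps STAMBPL1, which is on the same strand and had a log2 change of 0.91 in SUDHL16 (adjusted p = 0.0580), and ACTA2 on the opposite strand, with 0.67 (adjusted p = 0.650). Of 11 tested protein-coding genes within 1 Mb of FAS, 10 were higher in resistant SUDHL16, with a median log2 change of 0.67 and 0 called. Without CE-26, 9 of 12 were higher, with a median of 0.72, and 3 were called higher and 1 lower. The part of the locus in the FAS change was not tested.

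TNFRSF10A and TNFRSF10B, both on chromosome 8, encode the death-inducing receptors of TRAIL. TNFRSF10A (ENSG00000104689) had 26.1, 23.6 and 25.2 CPM in parental and 21.5, 22.5 and 22.9 CPM in resistant SUDHL6, a log2 change of -0.16 ± 0.06 with groups that did not overlap (adjusted p = 0.0432). In SUDHL16 it had 38.4, 22 (CE-26) and 37.4 CPM in parental and 21.5, 23.1 and 21.8 CPM in resistant cells. CE-26 alone fell inside the resistant range. The log2 change was -0.57 ± 0.27 (adjusted p = 0.308) with it and -0.76 ± 0.21 (adjusted p = 0.0589) without it, neither of which was called.

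TNFRSF10B (ENSG00000120889) stood on opposite sides in the lines. It had 33.6, 35.2 and 35.1 CPM in parental and 25.5, 25.6 and 24.7 CPM in resistant SUDHL6, and the groups were well separated. The log2 change was -0.46 ± 0.05 (adjusted p = 8.19e-06), a difference of less than 1.5-fold. In SUDHL16 it had 64.1, 55.1 (CE-26) and 69.0 CPM in parental and 79.9, 103.9 and 80.2 CPM in resistant cells. Every resistant library was above every parental one, with a log2 change of 0.49 ± 0.22 that was not called (adjusted p = 0.290; 0.41 and 0.306 without CE-26). The opposite strand of the locus carries RHOBTB2, whose log2 change was 0.03 in SUDHL6 and 1.73 in SUDHL16 (adjusted p = 0.00959). The strand setting of the counting is not given in the sources used here, so reads from overlapping parts of these genes cannot be told apart.

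TNFRSF1A (ENSG00000067182, chromosome 12, 6328757 to 6342114, minus strand), the main receptor of TNF, was barely expressed. It had 0 to 8 reads in the parental and 0 to 10 reads in the resistant SUDHL6 libraries and was not tested there. In SUDHL16 the parental libraries had 0, 9 (CE-26) and 0 reads, or 0, 3.10 and 0 CPM, and the resistant libraries 57, 43 and 75 reads, or 3.82, 2.02 and 3.19 CPM. The single parental library with reads was CE-26, whose level fell within the resistant range, and no annotated gene overlaps the locus. With CE-26 the log2 change was 1.97 ± 1.71 (adjusted p = 0.603). Without it the gene was called (adjusted p = 0.00463), and the 175 resistant reads against 0 were at least 33.5-fold higher by a floor of 3 counts over the parental group. CE-26 also had reads for markers of other cell types that the other parental libraries lacked, MPO at 2.18 and EPCAM at 1.21 CPM among them, and the part of this in its TNFRSF1A reads was not tested.

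Neither the adaptors nor the kinase was called in either line. FADD (ENSG00000168040, chromosome 11, 70203296 to 70207390, plus strand) links the receptors to the caspases and had 31.0, 32.8 and 34.3 CPM in parental and 36.1, 33.9 and 36.4 CPM in resistant SUDHL6. The groups overlapped, with a log2 change of 0.11 ± 0.05 (adjusted p = 0.101). In SUDHL16 FADD had 19.8, 12.7 (CE-26) and 28.2 CPM in parental and 26.3, 23 and 26.3 CPM in resistant cells, again overlapping, with 0.29 ± 0.32 (adjusted p = 0.690) and 0.08 ± 0.26 without CE-26. Of the 10 protein-coding genes within 1 Mb of FADD, the 6 that could be tested in SUDHL6 had a median log2 change of 1.06, with 3 called higher, so FADD did not share the change of these 3.

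TRADD (ENSG00000102871, chromosome 16, 67154185 to 67159909, minus strand), the adaptor of TNFRSF1A, had 11.6, 10.8 and 11.7 CPM in parental and 14.6, 13.5 and 14.9 CPM in resistant SUDHL6. The resistant libraries were all higher, by a log2 change of 0.33 ± 0.07 (adjusted p = 0.00270). SUDHL16 gave 15.0, 24.5 (CE-26) and 19.9 CPM in parental and 18.4, 7.20 and 14.5 CPM in resistant cells. Both groups were spread widely and overlapped, with a log2 change of -0.56 ± 0.40 (adjusted p = 0.511) and -0.37 ± 0.41 without CE-26.

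RIPK1 (ENSG00000137275, chromosome 6, 3063824 to 3115187, plus strand) encodes the kinase that stands between survival and death signalling at TNFRSF1A. It had 45.6, 44.6 and 43.4 CPM in parental and 51.4, 52.7 and 50 CPM in resistant SUDHL6. The groups did not overlap, with a log2 change of 0.21 ± 0.04 (adjusted p = 5.29e-04), well under 1.5-fold. SUDHL16 gave 29.6, 18.6 (CE-26) and 32.5 CPM in parental and 13.7, 16.3 and 22.2 CPM in resistant cells. CE-26 made the groups overlap, and the log2 change was -0.64 ± 0.31 (adjusted p = 0.323) with it and -0.82 ± 0.27 (adjusted p = 0.103) without it. In SUDHL6, 10 of 14 tested protein-coding genes within 1 Mb of RIPK1 were higher, with a median log2 change of 0.39 and 3 called higher. In SUDHL16, 4 of 11 were higher, with a median of -0.35, and 2 were called higher and 1 lower. The part of the locus in the RIPK1 changes was not tested.

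CASP8 (ENSG00000064012, chromosome 2, 201233443 to 201361836, plus strand), the initiator caspase of the receptor complex, was not called in either line. It had 33.5, 35.0 and 32.4 CPM in parental and 33.1, 32.7 and 36.0 CPM in resistant SUDHL6. The groups overlapped, with a log2 change of 0.01 ± 0.05 (adjusted p = 0.878). SUDHL16 gave 47.9, 42.0 (CE-26) and 55.6 CPM in parental and 57.1, 52.8 and 58.9 CPM in resistant cells, again overlapping, with 0.21 ± 0.21 (adjusted p = 0.662) and 0.13 ± 0.20 without CE-26. CASP10 (ENSG00000003400, chromosome 2, 201182872 to 201229428, plus strand), its close relative, was nearly absent from SUDHL6, with 2 to 11 reads in the parental and 6 to 18 reads in the resistant libraries, and was not tested there. In SUDHL16 it had 7, 23 (CE-26) and 0 reads in parental and 53, 90 and 103 reads in resistant libraries, or 0.39, 7.92 and 0 CPM against 3.55, 4.23 and 4.38 CPM. CE-26 was the highest of all 6 libraries and the other 2 parental libraries the lowest. The log2 change was 0.73 ± 1.45 (adjusted p = 0.847) with CE-26 and 4.31 ± 0.96 (adjusted p = 0.0262) without it, where CASP10 was called.

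CFLAR (ENSG00000003402, chromosome 2, 201116154 to 201176687, plus strand), the caspase inhibitor, had the greatest change of the members tested in SUDHL6. The parental libraries had 59, 34 and 57 reads and the resistant libraries 232, 238 and 176 reads. These were 1.73, 1.0 and 1.40 CPM in parental and 5.77, 5.89 and 4.85 CPM in resistant cells, with no overlap. The log2 change was 1.99 ± 0.18 (edgeR, adjusted p = 2.29e-06), and it stayed called under every alternative listed at the end, with a log2 change between 1.82 and 2.18 whichever library was left out. In SUDHL16 CFLAR had 100, 308 (CE-26) and 118 CPM in parental and 181, 152 and 195 CPM in resistant cells. CE-26 lay above all resistant libraries and the other 2 parental libraries below them. The log2 change was 0.01 ± 0.43 (adjusted p = 0.991), with a sign that turned under DESeq2, upper-quartile scaling or protein-coding genes alone, and 0.71 ± 0.22 without CE-26 (adjusted p = 0.0888). Levels were scaled within a line, so the lines are set side by side only: CFLAR had 1.38 ± 0.37 CPM (SD, n = 3) in parental SUDHL6 and 175 ± 115 CPM in parental SUDHL16, or 109 CPM without CE-26.

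**Figure D2:**
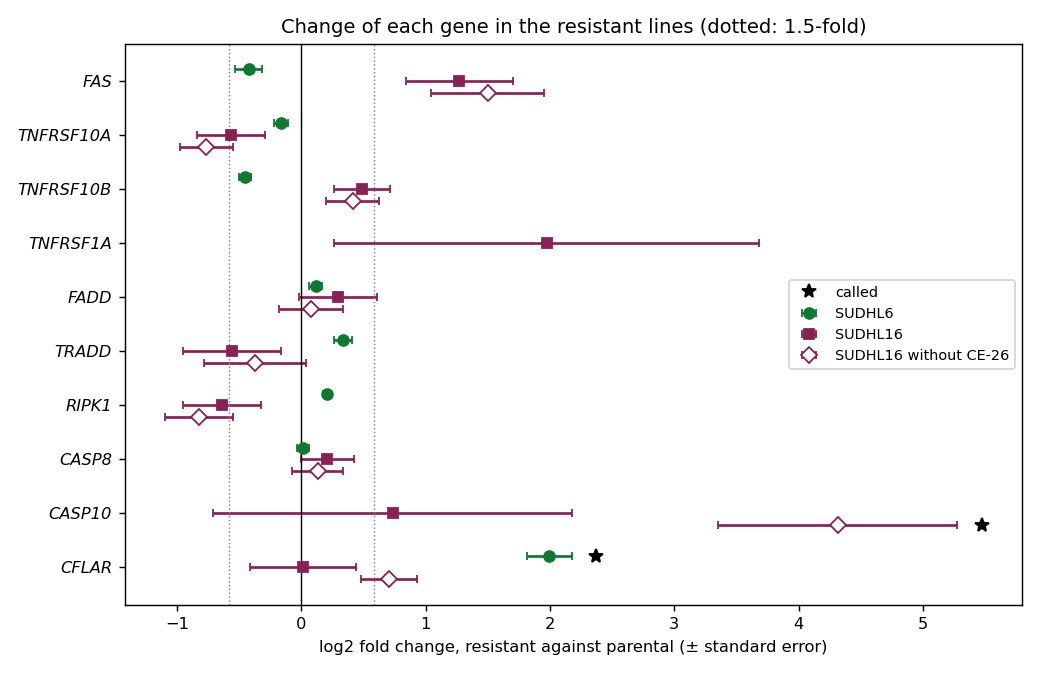
Log2 fold change of each gene in resistant against parental cells (horizontal axis), with bars of 1 standard error, in SUDHL6 (circles), SUDHL16 (squares) and SUDHL16 without CE-26 (open diamonds). Stars mark called genes, dotted lines 1.5-fold, and genes not tested have no symbol. CFLAR in SUDHL6 (1.99) and CASP10 in SUDHL16 without CE-26 (4.31) carry a star. TNFRSF1A without CE-26, also called, is left out because its parental libraries were at 0.

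CASP8 and CFLAR act in the same complex, and their reads can be set against each other within a library without any scaling. In SUDHL6 there were 0.0517, 0.0287 and 0.0433 CFLAR reads per CASP8 read in parental and 0.174, 0.180 and 0.135 in resistant libraries. The means were 0.0412 ± 0.0117 and 0.163 ± 0.0247 (SD, n = 3) and the groups did not overlap. In SUDHL16 the ratio was 2.09, 7.34 (CE-26) and 2.12 in parental and 3.17, 2.88 and 3.32 in resistant libraries. Apart from CE-26 the resistant libraries were higher here too. The ratio compares libraries and is not a ratio of molecules, since the transcripts differ in length.

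**Figure D3:**
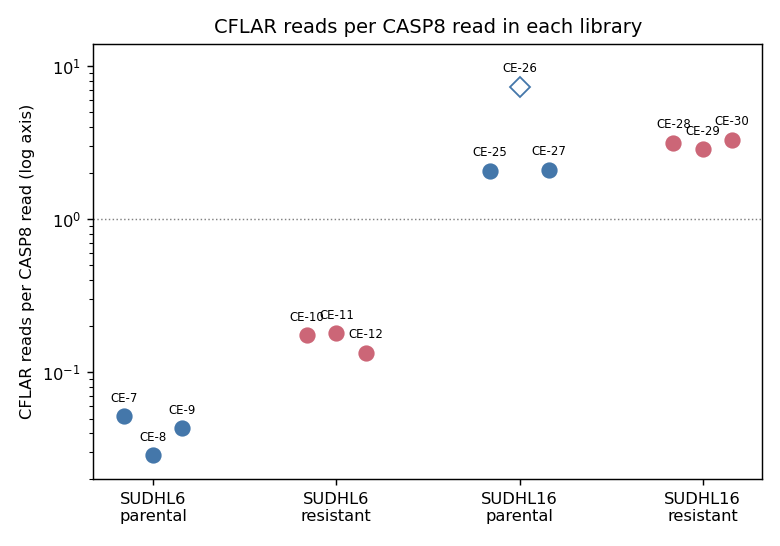
CFLAR reads per CASP8 read in each library (log axis) for parental and resistant SUDHL6 and SUDHL16, with each library named and CE-26 as an open diamond. The 3 resistant SUDHL6 libraries (0.135 to 0.180) lie above the 3 parental ones (0.0287 to 0.0517). In SUDHL16 the resistant libraries (2.88 to 3.32) lie between the 2 lower parental libraries and CE-26.

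CFLAR, CASP10 and CASP8 lie in this order on chromosome 2. In SUDHL6, 17 other protein-coding genes within 1 Mb of them could be tested, and had a median log2 change of 0.02, a range from -0.59 to 0.35 and 0 called, so the change of CFLAR was not shared by its neighbours. In SUDHL16, 16 were tested, with a median log2 change of -0.33 and 4 above 0, and 0 were called. Without CE-26 the median was -0.46 and 1 was called, TMEM237 at -1.51 (adjusted p = 0.0321), which is named after its value was seen.

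**Figure D4:**
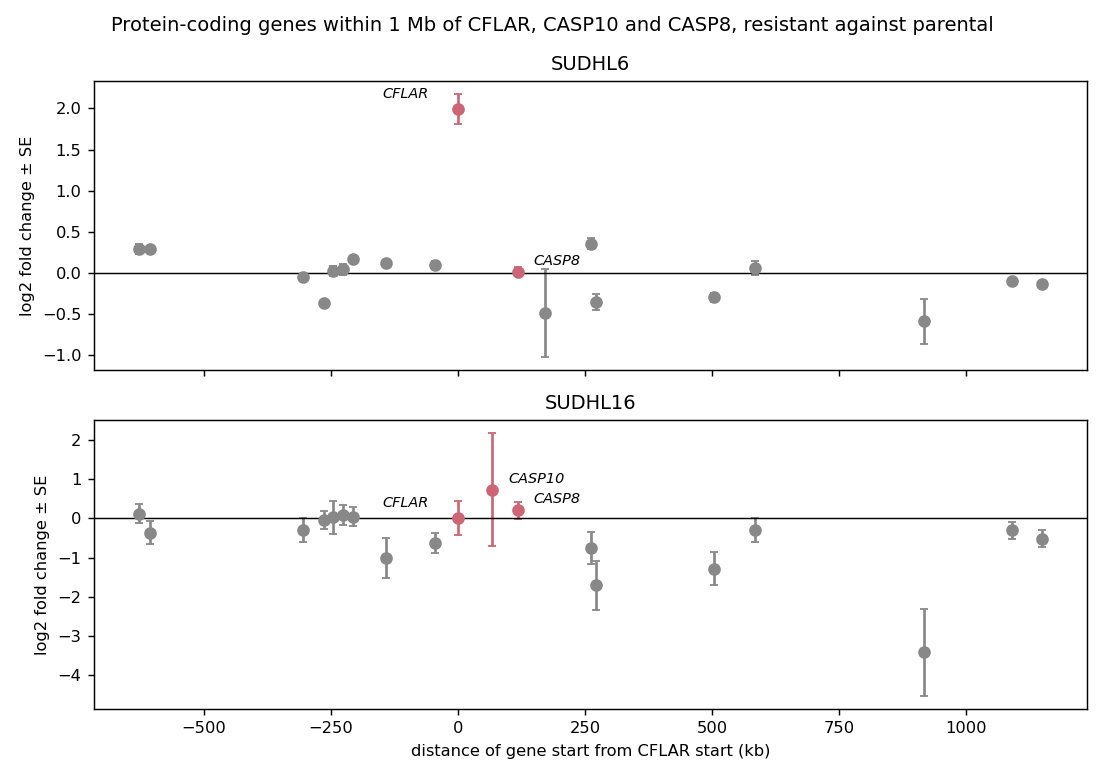
Log2 fold change, with bars of 1 standard error, of tested protein-coding genes around CFLAR, CASP10 and CASP8 (red, named) by the distance of each gene's start from that of CFLAR in kb, in SUDHL6 (top) and SUDHL16 (bottom, other vertical scale). In SUDHL6 CFLAR stands at 1.99 while the other genes lie between -0.59 and 0.35. CASP10 is missing from the top panel because it was not tested.

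Levels of different genes can be compared per kb of transcript, taken here from the Ensembl canonical one. In parental SUDHL6 the order was FADD (19.2 ± 0.97 CPM per kb, SD, n = 3), CASP8 (12.6 ± 0.50), RIPK1 (10.9 ± 0.27), TNFRSF10A (9.28 ± 0.48), TNFRSF10B (8.67 ± 0.22), TRADD (7.67 ± 0.32) and FAS (1.77 ± 0.11). CFLAR, TNFRSF1A and CASP10 were under 0.1 CPM per kb, and TNFRSF10A and TNFRSF10B did not differ beyond their spread. In parental SUDHL16 without CE-26 the order was CASP8 (19.5 CPM per kb), TNFRSF10B (16.6), TNFRSF10A (14.1), FADD (14.1), TRADD (11.8), RIPK1 (7.59), CFLAR (7.45) and FAS (7.33), with CASP10 at 0.0340 and TNFRSF1A at 0. The last 3 of the higher group, RIPK1, CFLAR and FAS, did not differ beyond their spread, nor did TNFRSF10A, FADD and TRADD. Both orders rest on the lengths used. By the median length of a gene's protein-coding transcripts, a measure chosen after seeing the data, TNFRSF10A (978 bases in place of 2690) came to 25.5 CPM per kb in parental SUDHL6 and would stand above FADD at 19.2. In parental SUDHL16 without CE-26, CFLAR (1230 bases in place of 14612) came to 88.5 CPM per kb and TNFRSF10A to 38.7, both above CASP8 at 27.2.

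An interaction term over all 12 libraries asked whether SUDHL16 and SUDHL6 changed differently with resistance. Its fit shares 1 estimate of spread per gene between lines of unlike spread, so it can understate the spread of SUDHL16. The interaction was called for 2 of 10 members, beside 7.16% of 19621 genes tested (4.34% higher in SUDHL16 and 2.81% lower). TNFRSF10B was higher in SUDHL16 relative to SUDHL6 by a log2 difference of 0.97 ± 0.23 (edgeR, adjusted p = 0.0236), and CFLAR was lower, at -1.89 ± 0.48 (adjusted p = 0.0353). Neither was steady: TNFRSF10B lost the call without CE-29 or without any 1 of the 6 SUDHL6 libraries (adjusted p up to 0.0837), and CFLAR without any 1 resistant SUDHL16 library or any 1 SUDHL6 library (up to 0.109). Both were lost with glmTreat (0.191 and 0.0913) and without a filter on low counts (0.141 and 0.0512), and TNFRSF10B also with library totals in place of TMM (0.0744). FAS came to 1.76 ± 0.49 (adjusted p = 0.0548) and was called by DESeq2 (0.0164), with library totals (0.0389) and with protein-coding genes only (0.0499). Without CE-26, 6 of 10 members were called beside 13.4% of genes tested (7.93% higher and 5.45% lower): FAS (1.90), TNFRSF10B (0.83) and TNFRSF1A in one direction, TNFRSF10A (-0.64), RIPK1 (-1.06) and CFLAR (-1.33) in the other. For TNFRSF10A the SE of this difference was 0.15, under the 0.21 of its SUDHL16 change alone. The same held for TNFRSF10B (0.18 and 0.22) and RIPK1 (0.24 and 0.27), but not for FAS, TNFRSF1A and CFLAR.

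The rest of the pathway was taken as 47 genes in 8 roles: ligands, other death receptors with TNF receptor 2, decoy receptors, ubiquitin ligases and kinases of the receptor complexes, deubiquitinases, regulators with death effector or death domains, necroptosis genes, and executioner caspases with their inhibitor. In SUDHL6, 36 were tested and 4 called, 1 higher and 3 lower (4.31% and 4.65% of all genes tested). In SUDHL16, 39 were tested and 3 called, 2 higher and 1 lower (3.20% and 2.10% of all genes tested). Without CE-26, 6 of 39 were called (15.4%), beside 10.0% of all genes tested. Their median log2 changes were 0.01 (SUDHL6) and 0.14 (SUDHL16, with 0.10 when CE-26 was left out). In 1 fit of all 12 libraries, which can overstate the spread of SUDHL6, 0 were called in SUDHL6.

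Among ligands, TNFSF15 (TL1A) was called higher in SUDHL6, from 4 to 8 reads in parental to 11 to 20 reads in resistant libraries, with a log2 change of 1.32 ± 0.47 (adjusted p = 0.0434) that lost its call without CE-7, CE-9 or CE-12. The call was also lost by DESeq2 (adjusted p = 0.102), without a filter on low counts (0.0815), with protein-coding genes only, with glmTreat (0.539) and in 1 fit of all 12 libraries (0.733). In SUDHL16 it had a log2 change of 1.32 (adjusted p = 0.282) and was called without CE-26 (1.96). TNFSF10, the TRAIL ligand itself, was not called in either line, with log2 changes of -0.37 in SUDHL6 and -1.55 in SUDHL16. CE-26 had the highest TNFSF10 level of SUDHL16, and without it the change was -0.75 (adjusted p = 0.531). FASLG had 0 reads in all 12 libraries. Of the 4 decoy receptors, 0 were tested in SUDHL6 and 1 in SUDHL16. That 1, TNFRSF10D, was called without CE-26 at 2.63 (adjusted p = 0.0385) and not with it (2.38, adjusted p = 0.0899). EDA2R, a receptor of the TNF receptor family, had 157, 18 and 164 reads in parental SUDHL16 and 0 in all 3 resistant libraries. It was called lower (adjusted p = 0.00308), by at least 182-fold from a floor of 3 counts over the resistant group, and without CE-26 (adjusted p = 8.81e-04) by at least 186-fold.

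In the receptor complexes, all 14 ubiquitin ligases and kinases were tested in both lines. IKBKG (NEMO), the regulatory subunit of the IKK complex, was called lower in SUDHL6, from 40.8 to 41.7 CPM in parental to 26.1 to 27.2 CPM in resistant cells (-0.63 ± 0.04, adjusted p = 1.63e-07). The call was lost in 1 fit of all 12 libraries (adjusted p = 0.193) and with glmTreat (0.680). In SUDHL16 the groups overlapped, with a log2 change of -0.10 (adjusted p = 0.883), and -0.10 without CE-26 (adjusted p = 0.880). IKBKG has a near-identical pseudogene copy, so its reads are uncertain. TRAF5, a signalling adaptor of TNF family receptors, was called higher in SUDHL16, from 22.7, 37.2 (CE-26) and 24.8 CPM to 57.7, 69.6 and 74.8 CPM (1.27 ± 0.26, adjusted p = 0.0290), and without CE-26 the change was 1.51 (adjusted p = 0.00390). That call was lost when any 1 SUDHL16 library other than CE-26 was left out (adjusted p up to 0.117), with glmTreat (0.0990) and with upper-quartile scaling (0.0568).

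TNFAIP3 (A20), the ubiquitin-editing enzyme that limits NF-kappaB signalling from these receptors, was the only one of the 47 called in both lines with all libraries used, and in opposite directions. It went from 42.6, 40.4 and 41.1 CPM in parental to 22.7, 22.4 and 23.2 CPM in resistant SUDHL6 (-0.86 ± 0.05, adjusted p = 2.00e-08), a call that was lost in 1 fit of all 12 libraries (adjusted p = 0.312). In SUDHL16 it went from 5.95, 13.8 (CE-26) and 10.7 CPM to 31.4, 51.2 and 59.6 CPM (2.27 ± 0.39, adjusted p = 0.0138), or 2.52 without CE-26 (adjusted p = 0.00456). The groups did not overlap in either line, but the SUDHL16 call was lost without CE-29 or CE-30 (adjusted p of 0.0746 and 0.0721). The difference between the lines was 3.20 ± 0.38 (adjusted p = 3.83e-04), or 3.35 without CE-26.

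Of the remaining roles, CRADD, a death domain adaptor, was called lower in SUDHL6 on few reads, 9 to 25 in parental and 4 to 9 in resistant libraries (-1.62 ± 0.50, adjusted p = 0.0218), and lost the call without CE-8, CE-11 or CE-12, without a filter on low counts (adjusted p = 0.0544), with glmTreat (0.292) and in 1 fit of all 12 libraries (0.423). In SUDHL16 the CRADD groups overlapped, with a log2 change of -0.60 (adjusted p = 0.605), and -0.53 without CE-26 (adjusted p = 0.593). FAIM2, an inhibitor of FAS-mediated death, had 9, 29 (CE-26) and 0 reads in parental and 420, 595 and 895 reads in resistant SUDHL16 and was called without CE-26 (6.90 ± 0.74, adjusted p = 8.81e-04) and not with it (3.66 ± 1.35, adjusted p = 0.182). Like TNFRSF10D and the necroptosis genes it is named after its values were seen. By edgeR within a line, no necroptosis gene was called. MLKL and ZBP1 overlapped between the groups of SUDHL16, and their log2 changes of -2.04 and -0.93 turned to 0.20 and 1.28 without CE-26. RIPK3 had 5.46 to 5.78 CPM in parental and 6.12 to 7.85 CPM in resistant SUDHL6 (0.33 ± 0.11, adjusted p = 0.0354, under 1.5-fold), and 6.12 to 10.2 CPM against 2.55 to 2.98 CPM in SUDHL16 (-1.46 ± 0.46, adjusted p = 0.120, and -1.53 without CE-26, adjusted p = 0.0520). RIPK3 was called lower in SUDHL16 by DESeq2 (adjusted p = 0.0287). It was also called lower there in 1 fit of all 12 libraries (0.00477), which can understate the spread of SUDHL16. Its difference between the lines was called (-1.77, adjusted p = 0.0152, and -1.89 without CE-26). That call was lost when any 1 SUDHL6 library other than CE-11 was left out (adjusted p up to 0.0606), with glmTreat (0.0501) and without a filter on low counts (0.0907).

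**Figure D5:**
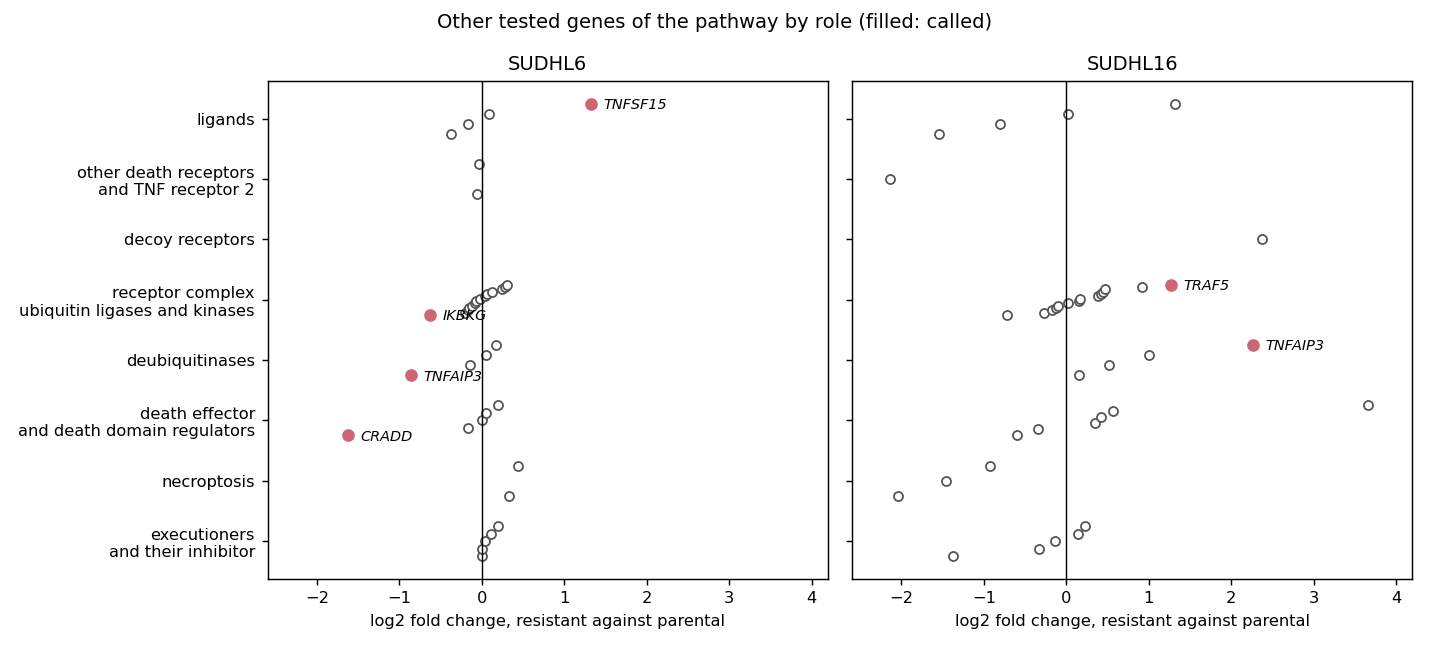
Log2 fold change in resistant against parental cells (horizontal axis) of the tested genes among 47 other pathway genes, grouped by role, in SUDHL6 (left) and SUDHL16 (right). Filled, named points are called genes. TNFAIP3 is filled on both sides, at -0.86 and 2.27. EDA2R is left out of the right panel because its resistant libraries were at 0.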

How the data were processed

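RNA-seq libraries of parental and venetoclax-resistant SUDHL6 and SUDHL16 cells were analysed, 3 per group. The deposited values were raw read counts per Ensembl gene, 1 library per table, which the authors made after adapter trimming with TrimGalore, alignment to GRCh38 with HISAT2 and assembly with StringTie. The counting tool, annotation and strand setting are not given in the sources used here. Of 60675 identifiers, 56558 matched GENCODE 44, and the files' coordinates were taken from that annotation. Groups came from the source labels.

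Genes kept by filterByExpr were fitted with edgeR 4.0.16 (R 4.3.3), with TMM scaling and the two-sided quasi-likelihood test, in each line alone, and in 1 fit of 12 libraries for the interaction. The Benjamini-Hochberg adjustment ran over all genes tested, and the threshold was an adjusted p of 0.05 and 1.5-fold. Changes are log2 fold changes with standard errors. CPM are scaled within a line, except those of cell type markers, which are per 1000000 total counts. The fitting steps were tested on simulated data. Alternatives were DESeq2 1.42.0, upper-quartile scaling, library totals, no filter, protein-coding genes only, glmTreat, 1 fit of 12 libraries, and each library left out in turn. Total counts of 4131927 to 40885665 set the precision, and floors of 3 counts cover counting error only.

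The members and lists were chosen with earlier results of these data known. All members are described. Of the 47 other pathway genes, those called in at least 1 line are named, as are neighbours of CFLAR, CASP10 and CASP8 within 1 Mb that were called. No 2 libraries of a group held equal counts. 1 further pathway gene and 1 further marker are not reported here. Amino acid sequences, and promoters of the other members, were not analysed here.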

Additional observations from a re-analysis of the deposited data

Results flagged for a closer look

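The change with resistance differed between SUDHL16 and SUDHL6, by the interaction test of edgeR over 12 libraries, for 2 of the 10 members and 4 of 41 tested among the other pathway genes (9.76%), beside 7.16% of 19621 genes tested. Each value is the log2 change in SUDHL16 minus that in SUDHL6. The fit shares 1 estimate of spread between lines of unlike spread, so it can understate the spread of SUDHL16. For TNFRSF10B it was 0.97 (adjusted p = 0.0236), with a log2 change of -0.46 in SUDHL6 and 0.49 in SUDHL16. For CFLAR it was -1.89 (adjusted p = 0.0353), with 1.99 and 0.01. Without CE-26 the CFLAR difference was -1.33 (adjusted p = 0.00530), with a log2 change of 0.71 in SUDHL16. TNFAIP3 gave 3.20 (adjusted p = 3.83e-04, and 3.35 without CE-26). Its level was higher in 3 of 3 resistant SUDHL16 libraries and lower in 3 of 3 resistant SUDHL6 libraries than in any parental library of the same line. TRAF5 gave 1.53 (adjusted p = 0.00167, and 1.68 without CE-26) and RIPK3 -1.77 (adjusted p = 0.0152, and -1.89 without CE-26). EDA2R gave a fitted -10.9 (adjusted p = 0.0117, and 0.00634 without CE-26), which is no bound, since the resistant SUDHL16 libraries were at 0, SUDHL6 had at most 6 reads in any library, and the call was lost without CE-12 (adjusted p = 0.0777). The lines also differed in library kit and sequencer, and these cannot be told apart from the line. With 3 libraries a group, single values were not tested for outlying samples. CE-26 was set apart by its total and by where its counts fell, as described above.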

How the results depend on the processing

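No paired analysis was possible because the labels carry no replicate numbers that link libraries across groups. The members called in SUDHL6 (1) were the same in number under every alternative. In SUDHL16, 1 member (FAS) was called in 1 fit of 12 libraries, and 0 to 2 when a library was left out. For the difference between the lines, 4 members were called by DESeq2, 0 with glmTreat, 0 without a filter on low counts, and 0 to 6 when a library was left out. Of the other pathway genes in SUDHL6, 0 were called in 1 fit of 12 libraries, 1 with glmTreat, 2 without a filter, and 2 to 3 when a library was left out (2 without CE-9 and 2 without CE-12). In SUDHL16, 8 were called in 1 fit of 12 libraries, 8 by DESeq2, and 1 to 6 when a library was left out. The share of all genes called also moves with the setting, in SUDHL16 from 5.30% to 10.0% without CE-26. It is not given here for the other settings, so these counts are no result about the members or the pathway. Some log2 changes turned sign. CFLAR in SUDHL16 gave -0.024 by DESeq2, -0.076 with protein-coding genes only, -0.13 with upper-quartile scaling, and -0.25 to 0.71 when a library was left out. IKBKG in SUDHL16 gave 0.026 with library totals, 0.0086 without a filter and -0.32 to 0.047 when a library was left out. The difference between the lines for CASP10 gave -0.020 by DESeq2, -0.036 with upper-quartile scaling and -0.24 to 3.70 when a library was left out, and for FADD -0.079 to 0.53 when a library was left out. CASP8 in SUDHL6 gave -0.032 to 0.043 when a library was left out. Except for CE-26, whose removal is described above, the cause was not tested. In SUDHL16 the median log2 change over all genes was 0.11 with library totals, -0.11 with upper-quartile scaling and -1.18 without a filter, against -0.02. With at most 18 reads in any library, TNFRSF1A and CASP10 in SUDHL6 were left without a test.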
